A study of Mus musculus with 11 samples.

Results

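The collagen genes examined here are the 41 mouse genes in the deposited expression table whose symbol has the form Col, a number, a and a number, with Col22a1 left out, out of 18269 genes in all. RNA was sequenced from the tibialis anterior, a fast-twitch muscle at the front of the shin, of C57BL/6 mice aged 21 to 24 months. There were 4 libraries from mice that received young serum, 3 from mice that received young serum depleted of extracellular vesicles (EVs, small membrane particles that cells release, called EV-depleted serum here) and 4 from mice that received saline. The protocol fields name an injury model for the animals without saying how it was applied to each group, and all 3 groups share strain, age and muscle. The study asked how the injected serum, with or without its EVs, affects old muscle.

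Collagens are secreted proteins in which 3 chains wind around each other in a triple helix. Every turn of the helix needs a small glycine at a fixed spacing, so that the chains are long repeats of glycine and 2 other residues (Gly-X-Y). Fibrillar collagens (types I, II, III, V, XI, XXIV and XXVII) form the load-bearing cables of connective tissue. Basement membrane collagens (type IV with types XV and XVIII) build or line the sheet that surrounds each muscle fibre and blood vessel. FACIT collagens (such as types XII, XIV and XVI) sit on the surface of fibrils and link them to other matrix. The remaining types include collagen VI, a microfibril that ties the basement membrane to the surrounding connective tissue. Most collagen RNA in muscle is made by fibroblast-like cells between the fibres and, for type IV, also by vessel cells. In bulk muscle, fewer cells of a type and less RNA per cell cannot be told apart.

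The repeat that defines the family differs between the classes in a way that can be read from their coding sequences, and a stretch of a fibrillar and of a basement membrane gene is shown for that contrast. Both stretches run over 42 codons, 126 bases of the coding sequence, on the coding strand from 5′ to 3′, and capitals mark the glycine codons. The first comes from Col1a1, on chromosome 11 (codons 168 to 209), and the second from Col4a1, on chromosome 8 (codons 142 to 183), both from GENCODE release 21 on mouse build mm10.
Col1a1: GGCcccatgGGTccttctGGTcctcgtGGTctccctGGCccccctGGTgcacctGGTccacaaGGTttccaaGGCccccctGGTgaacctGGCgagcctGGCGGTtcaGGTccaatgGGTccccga
Col4a1: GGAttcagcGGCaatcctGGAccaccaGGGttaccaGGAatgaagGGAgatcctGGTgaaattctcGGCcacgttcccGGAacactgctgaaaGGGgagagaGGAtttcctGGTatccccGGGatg
In Col1a1 the capital codons come at one even spacing throughout, with 1 extra glycine codon inside a triplet, 15 in all. In Col4a1 the spacing breaks and restarts, with 13 glycine codons. Across the family, the longest uninterrupted run of Gly-X-Y triplets had a median of 338 triplets in the 11 fibrillar genes (216 to 344). It had a median of 41 in the 8 basement membrane genes (30 to 66), 52 in the 7 FACIT genes (32 to 113) and 45 in the 15 other genes (23 to 87). The fibrillar range did not meet that of any other class.

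Levels were taken from the deposited CPM, read counts scaled so that each library sums to 1000000. As read from the steps between low values, 1 CPM stood for 36.4 to 42.3 reads, depending on the library. A gene was tested when at least 3 of the 11 libraries reached 1 CPM, which kept 13187 genes and 31 of the 41 collagens. By class these were 10 fibrillar, 7 basement membrane, 5 FACIT and 9 other genes. The 10 below the filter were Col17a1, Col28a1, Col4a6, Col19a1, Col26a1, Col6a5, Col2a1, Col9a2, Col6a4 and Col25a1. Among the tested genes 22 reached 1 CPM in all 11 libraries, while Col4a3 and Col9a1 did so in 3, Col11a1 in 4 and Col13a1 in 5.

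Some libraries stood apart from the rest, and the effect of leaving them out is given below. Saline replicate 4 carried adipocyte markers (6 genes, Adipoq, Cfd and Plin1 among them) at a summed 4128 CPM, against 29.1 to 195 CPM in young serum libraries, 46.2 to 151 CPM in EV-depleted serum libraries and 109 to 259 CPM in saline replicates 2, 3 and 6. Its macrophage markers summed to 318 CPM, the highest of the 11, and its tendon markers to 91.4 CPM, the lowest. Of the fibro-adipogenic progenitor list (10 genes of the connective-tissue cells of muscle), Gsn alone was at 3562 CPM in that library, while the 9 other genes summed to 545 CPM, inside the range of 301 to 650 CPM over all libraries. EV-depleted serum replicate 3 held the lowest of those sums, 301 CPM. Saline replicate 6 carried slow-fibre markers at 4513 CPM, against 124 to 1688 CPM in the 10 other libraries, and was the lowest library for 32.5% of all tested genes. Over all groups, macrophage markers summed to 48.1 to 144 CPM with young serum, 68.3 to 114 CPM with EV-depleted serum and 119 to 318 CPM with saline. The 8 markers of skeletal muscle fibres summed to 141710 to 189935 CPM. None of 4 bone markers and 1 of 6 cartilage markers reached the level for testing.

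Measured per kilobase of coding sequence, which makes levels comparable between genes, Col1a2 was the most abundant collagen. The mean over 11 libraries was 24.2 CPM per kb for Col1a2, 20.5 for Col3a1, 18.2 for Col1a1, 17.5 for Col4a1 and 14.3 for Col4a2. The collagen VI genes Col6a2 and Col6a1 followed at 13.4 and 12.7 CPM per kb, and the next, Col5a3, was at 4.74. These 7 chains, of collagens I, III, IV and VI, thus stood ahead of all others. Further chains of collagens IV and VI were lower, with Col6a3 at 3.07 CPM per kb. Neighbours in that order overlapped widely between libraries. The order within the top 7 also depended on the length used: over all annotated exon bases, Col1a1 came first at 12.1 CPM per kb and Col1a2 sixth at 8.03.

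Fibrillar genes made up 51.6 ± 5.6% of the summed per-kb collagen level in young serum muscles (SD, n = 4), 46.8 ± 4.4% in EV-depleted serum muscles (n = 3) and 46.6 ± 4.5% in saline muscles (n = 4). Basement membrane genes made up 23.2 ± 3.4% with young serum, 27.3 ± 2.9% with EV-depleted serum and 27.05 ± 3.9% with saline. FACIT genes stayed at 1.149% to 2.69% in all libraries. The ranges of these shares overlapped between all groups.

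The genes of collagen I, the main fibril of tendon, bone and muscle connective tissue, varied more within each group than the group means differed. Col1a1 (chromosome 11, 94936224 to 94953042, plus strand) stood at 119.9, 77.7, 124.5 and 55.9 CPM with young serum, 92.3, 36.8 and 71.4 CPM with EV-depleted serum and 50.3, 79.0, 125.5 and 41.4 CPM with saline. Saline replicate 4 was as high as the highest young serum library, and the groups overlapped. Col1a2 (chromosome 6, 4504814 to 4541544, plus strand) stood at 162.1, 110.5, 130.4 and 73.3 CPM with young serum, 106.0, 46.7 and 108.3 CPM with EV-depleted serum and 62.0, 93.3, 141.6 and 62.9 CPM with saline. Its highest library was a young serum one and its lowest EV-depleted serum replicate 3.

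On the log2(CPM + 1) scale, the young serum minus saline difference was 0.41 ± 0.38 for Col1a1 and 0.43 ± 0.34 for Col1a2 (SE, limma adjusted p = 0.534 and 0.455). The 95% intervals of the fold ran from 0.742 to 2.37 for Col1a1 and from 0.803 to 2.25 for Col1a2. Neither gene passed the test, and the intervals hold both a doubling and a small decrease. The EV-depleted serum minus saline differences were -0.11 ± 0.41 for Col1a1 and -0.06 ± 0.37 for Col1a2 (limma adjusted p = 0.909 and 0.949). Young serum minus EV-depleted serum gave 0.52 ± 0.41 for Col1a1 and 0.49 ± 0.37 for Col1a2 (limma adjusted p = 1 for each).

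Col3a1, the collagen of reticular and elastic tissue that joins collagen I in fibrils, had 143.1, 68.3, 116.1 and 54.2 CPM with young serum, 92.1, 33.7 and 109.0 CPM with EV-depleted serum and 59.5, 82.3, 183.0 and 51.4 CPM with saline. Its highest value was saline replicate 4 and its lowest EV-depleted serum replicate 3. The differences were 0.10 ± 0.46 for young serum minus saline, -0.24 ± 0.50 for EV-depleted serum minus saline and 0.34 ± 0.50 for young serum minus EV-depleted serum (log2, SE; limma adjusted p = 0.912, 0.827 and 1).

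The collagen V chains, which set the width of collagen I fibrils, included Col5a3 and Col5a1. Col5a3 had 22.1, 15.1, 18.04 and 24.0 CPM with young serum, 18.7, 11.1 and 37.3 CPM with EV-depleted serum and 13.8, 27.01, 69.7 and 14.9 CPM with saline. The 69.7 CPM belonged to saline replicate 4, and the other libraries of all groups overlapped. Col5a1 averaged 20.8 ± 4.9 CPM with young serum, 16.8 ± 6.9 CPM with EV-depleted serum and 21.9 ± 12.8 CPM with saline.

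Of the scarce fibrillar genes, Col11a1, a chain best known from cartilage fibrils, had 0.764, 1.24, 1.04 and 0.996 CPM with young serum, 1.02, 0.337 and 1.99 CPM with EV-depleted serum and 0.330, 0.660, 0.355 and 0.578 CPM with saline. The young serum libraries were all above the saline ones, but no saline library reached 1 CPM, so Col11a1 passed the filter through the serum groups alone and had to lean that way. The young serum minus saline difference was 0.44 ± 0.22 and the EV-depleted serum minus saline difference 0.45 ± 0.24 (log2, SE; limma adjusted p = 0.255 and 0.433). Col24a1, a fibrillar gene of developing bone, gave 0.53 ± 0.33 and 0.36 ± 0.36 in those comparisons (limma adjusted p = 0.339 and 0.624).

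**Figure D1:**
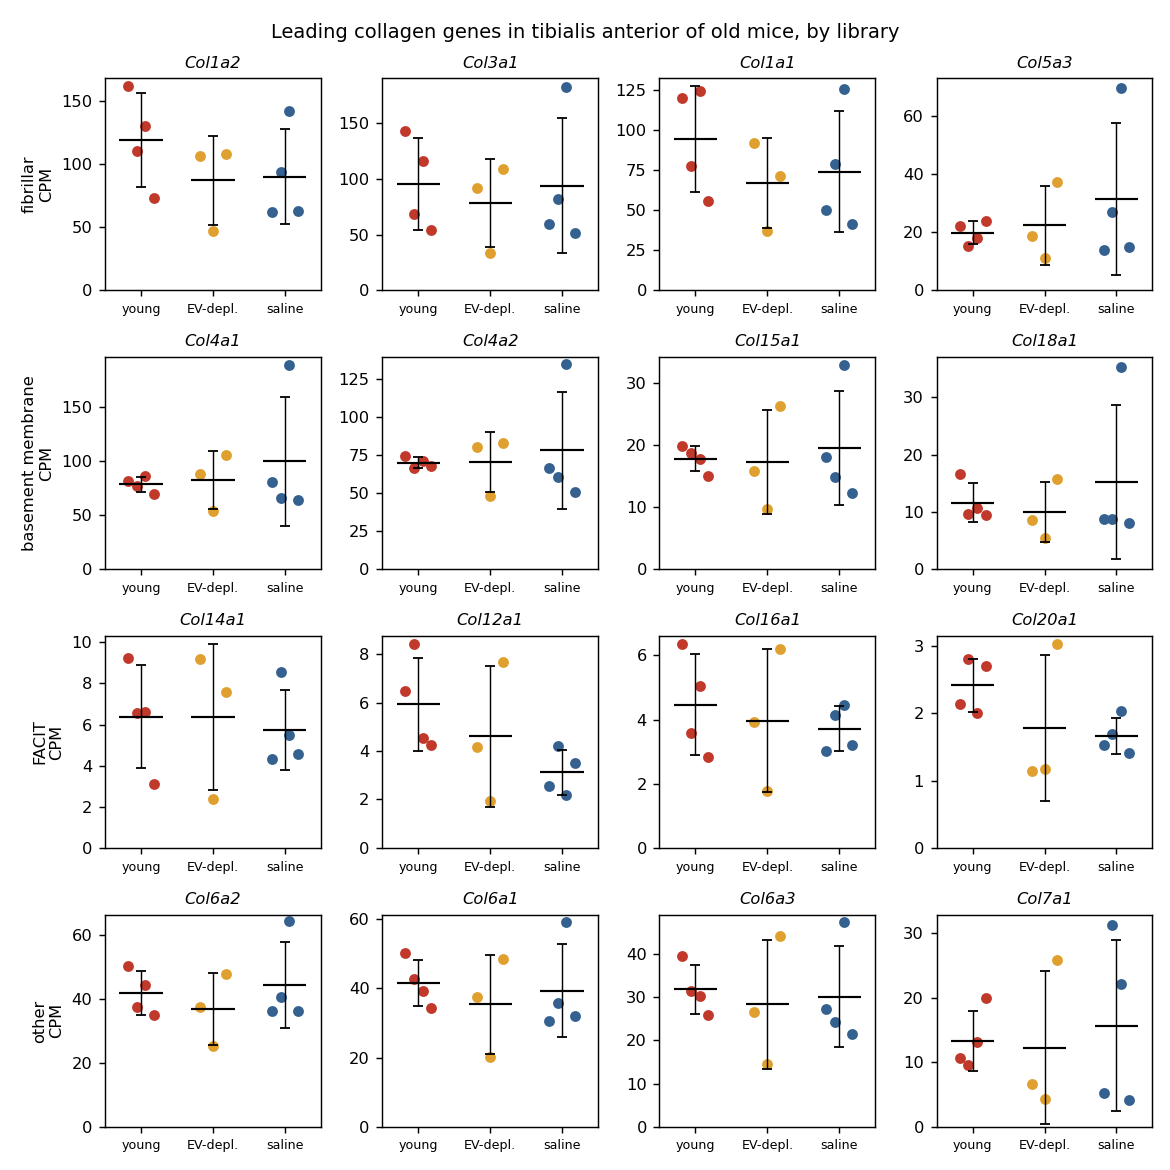
CPM (vertical axes, starting at 0) of the 4 most abundant genes of each class, 1 row per class, with points for libraries, horizontal bars for group means and error bars for SD (young serum n = 4, EV-depleted serum n = 3, saline n = 4). The groups overlap in most panels, 1 saline library (replicate 4) tops Col4a1 at 188.7 CPM, and Col12a1 is the panel in which every young serum point lies above every saline point.

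Col4a1 and Col4a2 code for the common pair of network-forming chains of basement membranes, and varied little among the young serum libraries. Col4a1 (chromosome 8, 11198423 to 11312826, minus strand) had 81.9, 76.9, 85.8 and 69.8 CPM with young serum, 87.9, 53.8 and 106.1 CPM with EV-depleted serum and 80.8, 66.2, 188.7 and 63.5 CPM with saline. Col4a2 (chromosome 8, 11312805 to 11449287, plus strand) had 74.3, 66.6, 71.1 and 68.1 CPM with young serum, 80.4, 47.9 and 83.0 CPM with EV-depleted serum and 66.8, 60.4, 134.6 and 50.6 CPM with saline. Young serum libraries lay close together, inside the span of the other groups, and saline replicate 4 lay far above all. The young serum minus saline differences were -0.19 ± 0.31 for Col4a1 and -0.05 ± 0.27 for Col4a2 (log2, SE; limma adjusted p = 0.735 and 0.926). EV-depleted serum minus saline gave -0.17 ± 0.34 and -0.08 ± 0.29 (limma adjusted p = 0.816 and 0.902), and young serum minus EV-depleted serum -0.02 ± 0.34 and 0.03 ± 0.29 (limma adjusted p = 1 for each). The 8 endothelial markers summed to 241 to 347 CPM with young serum, 263 to 338 CPM with EV-depleted serum and 256 to 412 CPM with saline, and were also highest in saline replicate 4. Their part in the collagen IV levels was not tested.

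Both genes were read outward from a shared stretch of DNA: in the deposited coordinates their transcripts start head to head and overlap by 22 bases. Their RefSeq promoter windows (300 bases, most of them ahead of the start, build GRCm38.p6, each on its own strand) are shown for that layout. Its part in the levels of the 2 genes was not tested. Over the 11 libraries, log2 levels of Col4a1 and Col4a2 gave Pearson r = 0.973. Col1a1 and Col1a2, which lie on chromosomes 11 and 6, gave r = 0.962. The 78 bases that both windows hold are in capitals. The Col4a1 window is chr8:11312777-11313076 (minus strand) and the Col4a2 window chr8:11312555-11312854 (plus strand).
Col4a1: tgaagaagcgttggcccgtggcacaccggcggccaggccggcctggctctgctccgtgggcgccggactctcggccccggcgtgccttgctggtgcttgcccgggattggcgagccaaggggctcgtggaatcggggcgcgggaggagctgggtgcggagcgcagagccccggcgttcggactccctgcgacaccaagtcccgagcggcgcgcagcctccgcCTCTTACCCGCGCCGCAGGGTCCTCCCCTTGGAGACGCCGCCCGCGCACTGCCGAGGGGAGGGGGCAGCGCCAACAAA
Col4a2: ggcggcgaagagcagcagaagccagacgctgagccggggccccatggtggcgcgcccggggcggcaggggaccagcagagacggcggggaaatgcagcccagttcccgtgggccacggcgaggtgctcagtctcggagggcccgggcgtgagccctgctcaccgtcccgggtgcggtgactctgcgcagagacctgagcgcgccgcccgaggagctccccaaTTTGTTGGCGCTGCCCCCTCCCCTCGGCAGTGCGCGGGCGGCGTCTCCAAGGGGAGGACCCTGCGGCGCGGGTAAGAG
A head-to-head layout also held Col4a4 and Col4a3, 71 bases apart on chromosome 1, and Col4a6 and Col4a5, 1308 bases apart on chromosome X. Of the 41 members, 34 had a promoter window in the RefSeq table. CCAAT, read on either strand, occurred in the windows of 13 of these (38.2%), against 41.1% of all 27025 genes with a window. TATAAA occurred in 4 (11.8%), against 15.7% of all genes, and GGGCGG in 22 (64.7%), against 38.2%.

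The collagens that trim the basement membrane on the side of the connective tissue were scarcer. Col18a1, whose fragment endostatin acts on vessels, had 16.6, 9.67, 10.7 and 9.41 CPM with young serum, 8.55, 5.47 and 15.7 CPM with EV-depleted serum and 8.82, 8.75, 35.3 and 8.07 CPM with saline. Here 3 of 4 saline libraries were within 1 CPM of each other and replicate 4 was apart. Col15a1, a proteoglycan collagen whose loss in mice causes muscle disease, averaged 17.8 ± 2.0 CPM with young serum, 17.2 ± 8.4 CPM with EV-depleted serum and 19.5 ± 9.2 CPM with saline. Col4a3, a chain best known from kidney, averaged 1.18 ± 0.45 CPM with young serum, 1.01 ± 0.61 CPM with EV-depleted serum and 0.638 ± 0.171 CPM with saline. Its young serum libraries were all above the saline ones, and none of the 3 libraries that reached 1 CPM was a saline one, so the filter leaned the same way. The young serum minus saline difference was 0.40 ± 0.20 and the EV-depleted serum minus saline difference 0.26 ± 0.22 (log2, SE; limma adjusted p = 0.267 and 0.572).

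The FACIT gene Col12a1 gave the smallest p of the family for young serum against saline. Col12a1, which codes for a fibril-linking collagen of tendon, fascia and muscle and is mutated in human muscle and joint disorders, lies on chromosome 9 (79598991 to 79718831, minus strand). It had 6.47, 8.404, 4.53 and 4.27 CPM with young serum, 4.18, 1.95 and 7.68 CPM with EV-depleted serum and 2.57, 4.202, 2.18 and 3.52 CPM with saline. All 4 young serum libraries were above all 4 saline libraries, though the lowest of the first and the highest of the second almost touched, and the EV-depleted serum libraries spanned both. The young serum minus saline difference was 0.74 ± 0.31 (log2, SE), a fold of 1.67 with a 95% interval of 1.04 to 2.67. The limma adjusted p of 0.209 did not pass the test. Under every alternative tried, which include leaving out each library, this difference stayed between 0.529 and 0.8955, and its limma adjusted p between 0.120 and 0.539. Its unadjusted p was not under 0.05 without young serum replicate 1 or 2, without saline replicate 2 or 4 or both 4 and 6, or with array weights.

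Tendon markers are given beside Col12a1, since tendon also makes it. Of 9 such genes 8 were tested, and the summed level of the list was 161 to 262 CPM in young serum libraries, 145 to 207 CPM in EV-depleted serum libraries and 91.4 to 204 CPM in saline libraries. In young serum minus saline, 7 of the 8 differences were above 0, against 47.5% of all tested genes, and 4 were higher at an unadjusted p under 0.05, against 10.5%. The median was 0.68 (log2), and no tendon marker passed the adjusted test in limma (smallest adjusted p = 0.180). No marker of the list was at 0 in any library. Of the 10 fibro-adipogenic progenitor markers, 1 was above 0 in young serum minus saline and 9 were below (median -0.28, log2). The part of either list in the Col12a1 values was not tested.

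The 3 other leading FACIT genes were closer between groups. Col14a1, a fibril-surface collagen of tendon and skin, averaged 6.37 ± 2.5037 CPM with young serum, 6.36 ± 3.56 CPM with EV-depleted serum and 5.75 ± 1.95 CPM with saline. Col16a1 averaged 4.47 ± 1.57 CPM with young serum, 3.96 ± 2.22 CPM with EV-depleted serum and 3.72 ± 0.70 CPM with saline. Col20a1 had 2.14, 2.80, 2.01 and 2.71 CPM with young serum, 1.14, 1.17 and 3.03 CPM with EV-depleted serum and 1.53, 1.69, 2.03 and 1.41 CPM with saline. The lowest young serum library was just below the highest saline library, so the groups overlapped. The Col20a1 difference was 0.36 ± 0.21 for young serum minus saline and 0.36 ± 0.22 for young serum minus EV-depleted serum (log2, SE; limma adjusted p = 0.311 and 1).

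Collagen VI, whose loss causes muscular dystrophies, was represented mainly by Col6a1, Col6a2 and Col6a3, which assemble together. Col6a6 was also tested, at a mean of 3.98 CPM over the 11 libraries. Col6a2 had 50.5, 37.6, 44.4 and 35.1 CPM with young serum, 37.6, 25.2 and 47.8 CPM with EV-depleted serum and 36.2, 40.8, 64.4 and 36.1 CPM with saline. Col6a1 averaged 41.6 ± 6.7 CPM with young serum, 35.4 ± 14.4 CPM with EV-depleted serum and 39.4 ± 13.4 CPM with saline. Col6a3 averaged 31.8 ± 5.7 CPM with young serum, 28.4 ± 14.9 CPM with EV-depleted serum and 30.1 ± 11.7 CPM with saline. The EV-depleted serum minus saline difference of Col6a2 was -0.27 ± 0.24 (log2, SE; limma adjusted p = 0.601).

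Of the remaining types, Col7a1, the anchoring fibril best known from skin, had 10.7, 9.59, 13.1 and 19.985 CPM with young serum, 6.63, 4.31 and 25.8 CPM with EV-depleted serum and 5.18, 31.3, 22.0 and 4.17 CPM with saline. Young serum libraries lay between the low and the high libraries of the other groups, and all groups overlapped. Col17a1, a transmembrane collagen of epithelial attachment, stayed below the filter at 7.57 CPM in saline replicate 4, 1.78 CPM in saline replicate 6 and 0.388 CPM or less in the 9 other libraries. Col8a2, a short-chain network collagen, differed by 0.41 ± 0.23 for young serum minus saline (log2, SE; limma adjusted p = 0.301). Col23a1, a transmembrane collagen, differed by 0.29 ± 0.23 for EV-depleted serum minus saline and by -0.33 ± 0.23 for young serum minus EV-depleted serum (log2, SE; limma adjusted p = 0.561 and 1).

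As a list, the collagens passed no adjusted threshold. In young serum minus saline, 0 of 31 tested collagens had a limma adjusted p under 0.05, as did 0% of all tested genes. The log2 difference was above 0 for 20 of 31 collagens, against 47.5% of all tested genes, with a median of 0.10 against -0.02. Col12a1 alone had an unadjusted p under 0.05, in the higher direction, where 10.5% of all genes were higher and 11.4% lower at that level. The groups did not overlap for 3 collagens, all higher (Col12a1, Col11a1 and Col4a3), where 6.09% of all genes were higher and 6.08% lower without overlap. Since Col11a1 and Col4a3 passed the filter through serum libraries alone, their direction was set by the filter, and nothing is read from that count. By class the medians were 0.09 for fibrillar, -0.04 for basement membrane, 0.18 for FACIT and 0.12 for other genes, and all 5 tested FACIT genes were above 0. At an unadjusted p under 0.05 the collagens were thus no more frequent than genes at large.

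In EV-depleted serum minus saline, 0 of 31 collagens passed the adjusted threshold in limma, as did 0% of all tested genes. The difference was above 0 for 10 of 31, against 49.6% of all genes, with a median of -0.11 against -0.00. No collagen had an unadjusted p under 0.05, where 6.49% of all genes were higher and 5.59% lower, and none had groups without overlap, where 3.39% were higher and 4.03% lower. The class medians were -0.17 for fibrillar, -0.08 for basement membrane, 0.00 for FACIT and -0.13 for other genes.

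In young serum minus EV-depleted serum, 0 of 31 collagens passed in limma, as did 0% of all tested genes. The difference was above 0 for 26 of 31, against 48.7% of all genes, with a median of 0.17 against -0.00. No collagen had an unadjusted p under 0.05, where 0.478% of all genes were higher and 1.75% lower, and none had groups without overlap, where 1.96% were higher and 4.16% lower. The class medians were 0.26 for fibrillar, 0.06 for basement membrane, 0.20 for FACIT and 0.17 for other genes. These 3 comparisons share libraries with each other. The labels do not tie libraries to animals; the p-values reflect how much these libraries vary, which may be technical.

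**Figure D2:**
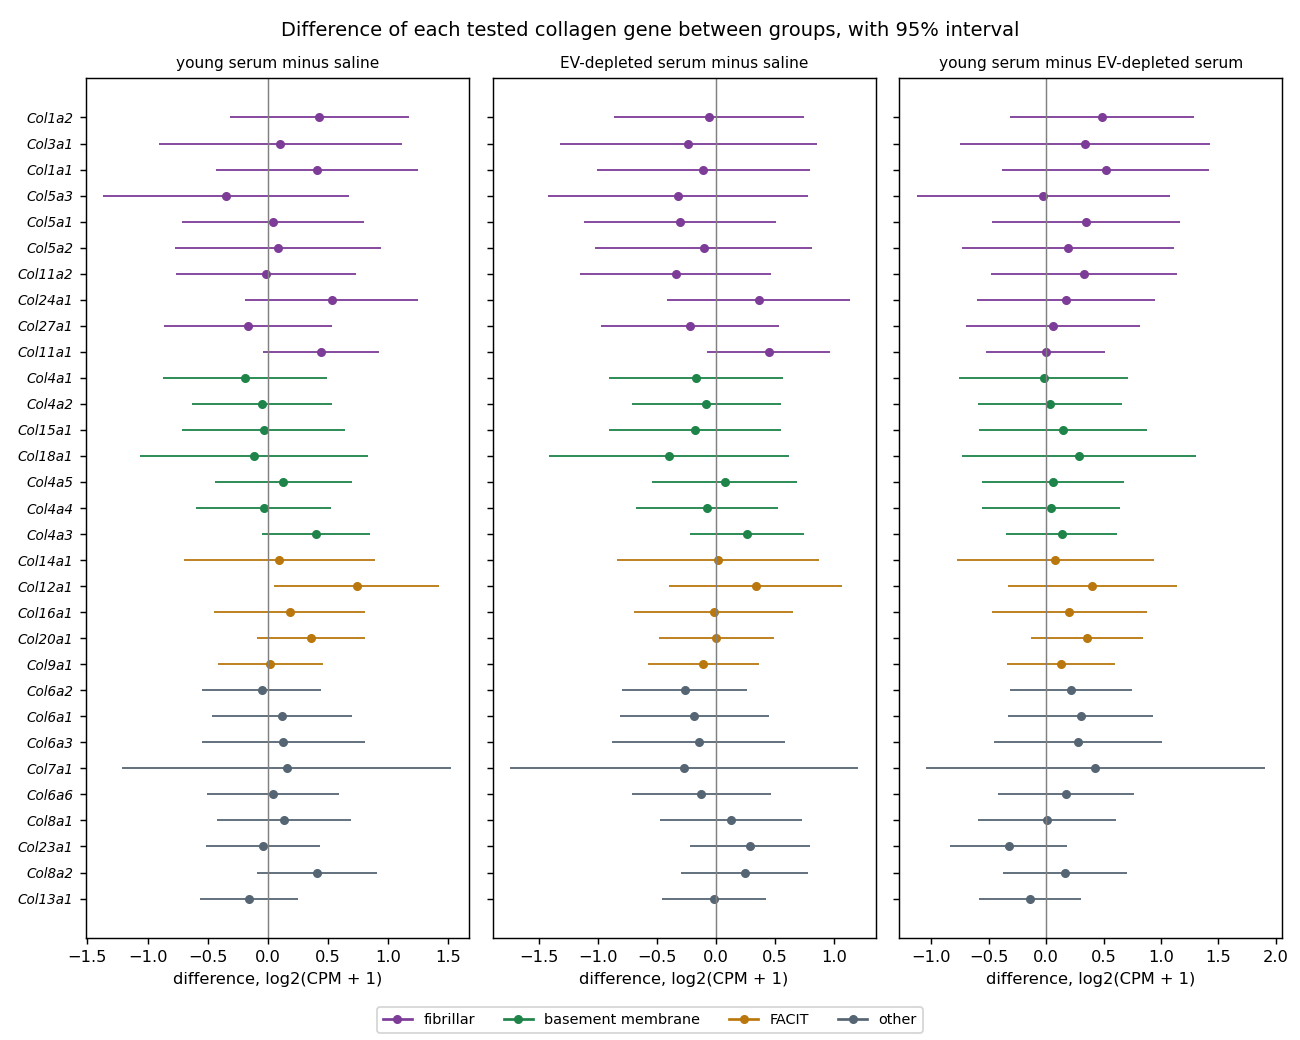
Difference in log2(CPM + 1) between groups (horizontal axes) for the 31 tested collagens, with points for the limma estimate, lines for its 95% interval and colours for class. Col12a1 in young serum minus saline, at 0.74, is the one interval that clears 0 without adjustment, and most points lie right of 0 in young serum minus EV-depleted serum.

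The direction of the list median depended on single libraries. EV-depleted serum replicate 3 was the lowest of 11 libraries for 23 of 31 tested collagens (74.2%), against 12.7% of all tested genes. Saline replicate 4 was the highest for 16 (51.6%), against 33.8% of all tested genes, and EV-depleted serum replicate 4 for 6 (19.4%, against 25.8%). The median deviation from the 11-library mean was -0.81 for collagens in EV-depleted serum replicate 3 (log2, all tested genes -0.11), 0.48 in EV-depleted serum replicate 4 (0.14) and 0.59 in saline replicate 4 (0.19).

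Without EV-depleted serum replicate 3, the EV-depleted serum minus saline difference was above 0 for 27 of 31 collagens (median 0.20; all genes 56.1% and 0.05). The young serum minus EV-depleted serum difference was then above 0 for 7 of 31 (median -0.12; all genes 33.0% and -0.07). Both collagen medians thus changed sign on the removal of 1 library. The young serum minus saline median did so too. It was -0.06 with 13 of 31 collagens above 0 without saline replicate 6 (all genes -0.06 and 42.1%). Without saline replicate 2 it was -0.00 with 15 of 31 above 0 (all genes -0.04 and 46.0%). Without saline replicate 4, the difference from saline was above 0 for 29 of 31 collagens with young serum (median 0.28; all genes 57.5% and 0.07) and for 28 of 31 with EV-depleted serum (median 0.14; all genes 60.4% and 0.08). Without both saline replicate 4 and EV-depleted serum replicate 3, 29 of 31 were above 0 in each comparison with saline. The medians were 0.28 for young serum (all genes 57.5% and 0.07) and 0.45 for EV-depleted serum (all genes 64.7% and 0.14). Then 5 collagens had an unadjusted p under 0.05 in each of those comparisons, where 26.3% and 25.0% of all genes did, and 0 passed adjustment (smallest limma adjusted p = 0.151 and 0.165). Col1a1 and Col3a1 were then at 0.56 and 0.66 in EV-depleted serum minus saline. That setting was chosen after the values were seen.

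The classes did not behave alike in the saline library rich in adipocyte markers. Its median deviation was 0.88 for basement membrane, 0.79 for fibrillar and 0.55 for other collagens, and 0.05 for FACIT collagens. In EV-depleted serum replicate 3, all classes were low, at -0.96 for fibrillar, -0.81 for FACIT, -0.61 for other and -0.55 for basement membrane genes. Within groups, collagens spread more than genes at large: the median within-group SD was 0.28 with young serum, 0.65 with EV-depleted serum and 0.42 with saline (log2), against 0.15, 0.22 and 0.30 for all tested genes.

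**Figure D3:**
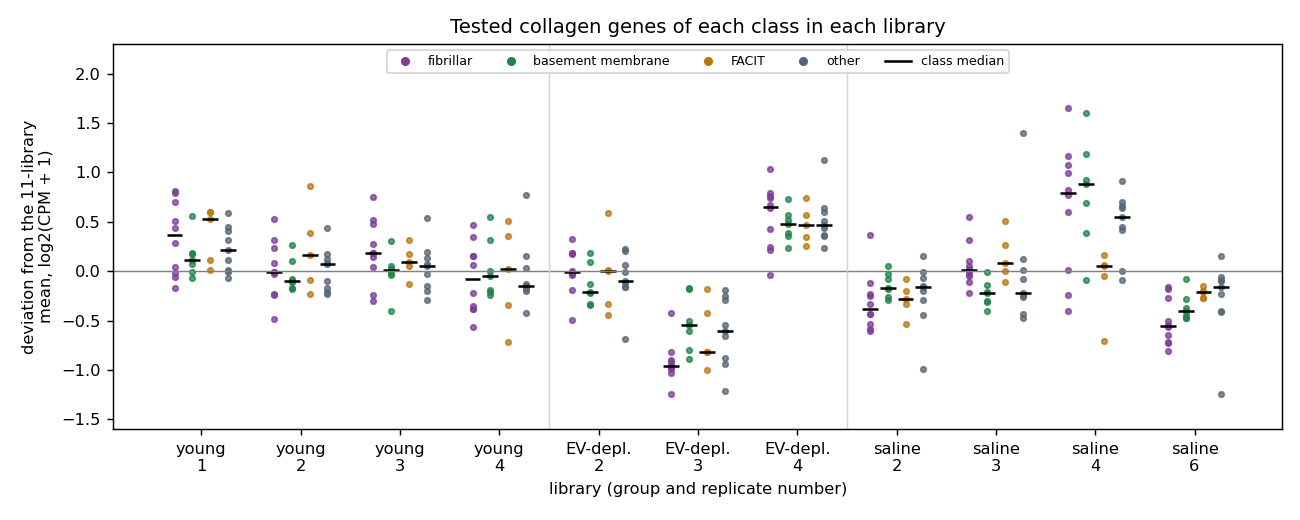
Deviation of each tested collagen from its own 11-library mean, in log2(CPM + 1) (vertical axis), by library (horizontal axis), with colours for class and black bars for class medians. The class medians of EV-depleted serum replicate 3 all lie below 0, and those of saline replicate 4 lie between 0.55 and 0.88 except for the FACIT class, at 0.05.

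Chains that assemble into one molecule varied less in their proportions than in their levels. Over the 11 libraries the CPM ratio Col4a1/Col4a2 ranged from 1.03 to 1.402, Col1a1/Col1a2 from 0.658 to 0.955, Col6a1/Col6a2 from 0.796 to 1.13 and Col6a3/Col6a1 from 0.673 to 0.910. Between molecules the ratio was looser, from 0.683 to 1.61 for Col4a1/Col1a1 and from 0.880 to 1.53 for Col3a1/Col1a1. All these ratios are of CPM without correction for length, so only their spread is read. Per kb of coding sequence, Col6a3 averaged 3.07 CPM and Col6a1 12.7 CPM.

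Log2 levels of chains of one molecule, and of the fibril partners Col1a1 and Col3a1, were correlated over the 11 libraries, with groups pooled. Col4a1 with Col4a2 gave Pearson r = 0.973 and Spearman rho = 0.964 (permutation p = 1e-05 for each, the smallest these resamples can give, adjusted p = 7e-05). Without saline replicate 4 and EV-depleted serum replicate 3, the libraries farthest from the median of Col4a1, r was 0.888. The pair left out was the same for Col6a1, while for Col1a1 it was EV-depleted serum replicate 3 and saline replicate 6, which kept saline replicate 4 in. Col1a1 with Col1a2 gave r = 0.962 and rho = 0.891 (permutation p = 2e-05 and 0.00044, adjusted 7e-05 and 0.00077), and r = 0.936 without the 2 farthest. Col1a1 with Col3a1 gave r = 0.928 and rho = 0.927 (permutation p = 3e-05 and 0.00011, adjusted 7e-05 and 0.00038; 0.879 without 2), and Col6a1 with Col6a2 r = 0.946 and rho = 0.918 (permutation p = 5e-05 and 0.00035, adjusted 8.7e-05 and 0.00077; 0.844 without 2).

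Partners of different classes were less tightly tied. Col1a1 with Col4a1 gave r = 0.659 and rho = 0.727 (permutation p = 0.017 and 0.014, adjusted 0.024 and 0.020), and r = 0.480 without the 2 farthest libraries. Col4a1 with Cdh5, an endothelial junction gene, gave r = 0.611 and rho = 0.536 (permutation p = 0.039 and 0.095, adjusted 0.046 and 0.11; 0.447 without 2). Col1a1 with Pdgfra, the receptor that marks fibro-adipogenic progenitors, gave r = 0.529 and rho = 0.373 (permutation p = 0.095 and 0.26, adjusted likewise 0.095 and 0.26; 0.207 without 2). These 7 relations were the ones computed, and correlations of deviations from group means were 0.957 to 0.980 for the 3 pairs that share a molecule and 0.952 for Col1a1 with Col3a1. They were 0.765 for Col1a1 with Col4a1, 0.658 for Col4a1 with Cdh5 and 0.566 for Col1a1 with Pdgfra. Single groups hold too few libraries for a value of their own.

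**Figure D4:**
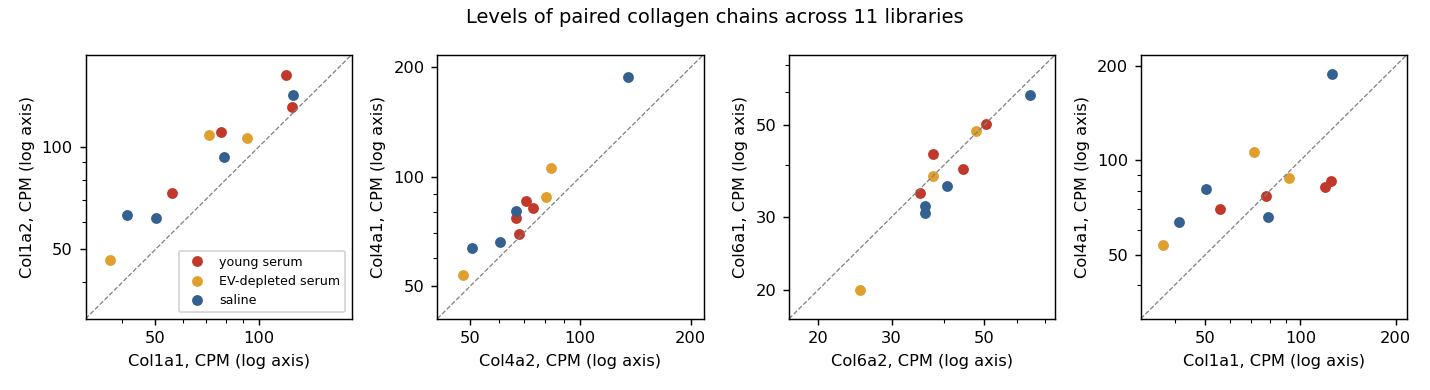
CPM of one collagen chain against another on log axes, 1 point per library coloured by group, with the dashed line marking equal CPM. Chains of one molecule (Col1a1 and Col1a2, Col4a2 and Col4a1, Col6a2 and Col6a1) fall along a line, while Col1a1 against Col4a1 scatters, with Pearson r = 0.659.

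The chain ratios were compared between groups with a two-sided exact permutation test, 21 tests in all. The lowest p was 0.0571, for Col6a1/Col6a2 in young serum minus saline (log2 difference 0.17; ratios of 0.994 with young serum and 0.881 with saline; adjusted p = 0.450). Col3a1/Col1a1 differed by -0.31 in that comparison (0.987 with young serum and 1.22 with saline). Col5a1/Col1a1 differed by -0.36 (0.227 with young serum and 0.292 with saline), and Col4a1/Col1a1 by -0.60 (0.874 with young serum and 1.33 with saline). Each of these ratios to Col1a1 had an exact permutation p of 0.0857 and an adjusted p of 0.450, and they share that denominator. Ranges of the groups overlapped in each case. The other differences in that comparison were -0.14 for Col4a1/Col4a2, -0.02 for Col1a1/Col1a2 and 0.01 for Col6a3/Col6a1.

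Genes that act on collagen chains were examined next, in 7 lists, and 0 of their members passed the limma adjusted test in any comparison. For their counts above 0, the shares of all tested genes were 47.5% in young serum minus saline and 49.6% in EV-depleted serum minus saline. The share was 48.7% in young serum minus EV-depleted serum. Groups without overlap in EV-depleted serum minus saline made up 3.39% (higher) and 4.03% (lower) of all tested genes. Of 18 genes for chain folding and modification 17 were tested, 10 above 0 in young serum minus saline (median 0.01) and 8 in EV-depleted serum minus saline (median -0.08). Mia3, which helps to load bulky procollagen into transport vesicles, averaged 154 ± 21 CPM with young serum and 111 ± 28 CPM with saline (log2 difference 0.49 ± 0.19, limma adjusted p = 0.195). Ppib, the prolyl isomerase of procollagen folding, averaged 17.8 ± 3.0 CPM with young serum, 17.8 ± 0.9 CPM with EV-depleted serum and 27.1 ± 9.3 CPM with saline (-0.53 ± 0.22 and -0.52 ± 0.23 against saline, limma adjusted p = 0.200 and 0.412). P3h2, a prolyl 3-hydroxylase that acts on basement membrane collagen, had 3.02 to 4.02 CPM with EV-depleted serum and 1.24 to 2.47 CPM with saline, ranges that did not overlap (0.77 ± 0.19, limma adjusted p = 0.333).

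For procollagen trimming, 4 of 8 genes were tested, 1 above 0 in young serum minus saline (median -0.11) and 0 in EV-depleted serum minus saline (median -0.38). For cross-linking, 4 of 5 were tested, 3 above 0 with young serum (median 0.07) and 1 with EV-depleted serum (median -0.11). Pcolce, which speeds up removal of the C-terminal propeptide, had 16.9 to 24.6 CPM with EV-depleted serum, just below the 24.7 to 38.5 CPM of saline libraries (-0.48 ± 0.21, limma adjusted p = 0.411), and averaged 24.6 ± 6.0 CPM with young serum. Bmp1, the propeptide-cutting enzyme, averaged 12.9 ± 1.5 CPM with young serum, 11.3 ± 5.9 CPM with EV-depleted serum and 15.1 ± 4.9 CPM with saline. Loxl1, a cross-linking amine oxidase, had 15.2 to 17.6 CPM with EV-depleted serum and 18.4 to 33.2 CPM with saline, without overlap (-0.46 ± 0.20, limma adjusted p = 0.412). With young serum it averaged 17.4 ± 3.0 CPM (-0.41 ± 0.19 against saline, limma adjusted p = 0.229). Its relative Lox averaged 8.15 ± 3.11 CPM with young serum, 6.22 ± 2.75 CPM with EV-depleted serum and 7.19 ± 4.06 CPM with saline.

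Among 16 fibril-binding proteoglycans and matricellular proteins, all tested, 10 were above 0 in young serum minus saline (median 0.11) and 8 in EV-depleted serum minus saline (median -0.05). Fmod, a small proteoglycan of collagen fibrils that is also in the tendon list, averaged 98.5 ± 28.5 CPM with young serum and 54.4 ± 16.3 CPM with saline (0.84 ± 0.28, limma adjusted p = 0.180). Tnc, a matrix protein of tendon and healing tissue, averaged 4.76 ± 0.93 CPM with young serum and 2.87 ± 0.93 CPM with saline (0.58 ± 0.28, limma adjusted p = 0.241). Podn averaged 6.77 ± 2.71 CPM with EV-depleted serum and 18.9 ± 21.8 CPM with saline, where replicate 4 reached 51.5 CPM, and Lum averaged 12.9 ± 5.3 CPM with EV-depleted serum and 16.4 ± 2.2 CPM with saline.

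The partners of collagen IV in the basement membrane were above 0 for 7 of 10 genes in young serum minus saline (median 0.33), for 6 in EV-depleted serum minus saline (median 0.09) and for 10 in young serum minus EV-depleted serum (median 0.20). Lama2, the laminin chain of the muscle fibre surface, averaged 35.8 ± 5.1 CPM with young serum, 33.8 ± 9.1 CPM with EV-depleted serum and 24.8 ± 7.4 CPM with saline (0.54 ± 0.21 and 0.44 ± 0.23 against saline, limma adjusted p = 0.192 and 0.429). Lama5 averaged 40.5 ± 6.4 CPM with young serum and 27.5 ± 8.2 CPM with saline (0.59 ± 0.26, limma adjusted p = 0.221). Hspg2, which codes for perlecan, averaged 184 ± 56 CPM with EV-depleted serum and 146 ± 37 CPM with saline.

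Receptors and degrading enzymes completed the lists. Of 8 collagen receptors 7 were tested, 5 above 0 with young serum (median 0.10) and 4 with EV-depleted serum (median 0.02) against saline. Itgb1, the common beta chain of collagen-binding integrins, averaged 173 ± 16 CPM with young serum, 187 ± 43 CPM with EV-depleted serum and 146 ± 26 CPM with saline (0.26 ± 0.16 and 0.35 ± 0.17 against saline, limma adjusted p = 0.327 and 0.420). Ddr2, a receptor kinase for fibrillar collagen, averaged 18.4 ± 3.4 CPM with young serum and 14.7 ± 6.7 CPM with saline, and Mrc2, an uptake receptor for collagen fragments, 8.83 ± 2.88 CPM with EV-depleted serum and 10.02 ± 2.9 CPM with saline. Of 6 degrading enzymes 4 were tested, and 1 was above 0 with young serum (median -0.29) and 0 with EV-depleted serum (median -0.50) against saline. Mmp9, a gelatinase, had 0.778 to 1.61 CPM with EV-depleted serum and 1.71 to 12.3 CPM with saline (-1.02 ± 0.47, limma adjusted p = 0.413), and 1.07 to 3.23 CPM with young serum. Mmp14, a membrane-bound collagenase, averaged 11.7 ± 2.9 CPM with young serum, 11.3 ± 3.5 CPM with EV-depleted serum and 16.8 ± 6.8 CPM with saline. Saline replicate 4 was the highest of 11 libraries for Mmp9 and Mmp14, and likewise for Podn, Loxl1, Pcolce and Ppib, and its part in those differences was not tested.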

How the data were processed

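Total RNA of 11 tibialis anterior samples was sequenced, and FastQC, STAR, DESeq2 and the build mm10 are listed in the submitters' processing notes, with no versions or roles. The authors deposited CPM and TPM values per gene. The deposited CPM values sum to 1000000 per library, with an offset of 0.0001 read from the values. The offset was removed for the checks of read depth and of TPM only, and stayed in the levels, ratios and fits. The deposited TPM values equalled CPM over the gene's span on the genome with its introns, as tested on the values, and were not used for levels. Between 75.4% and 78.8% of values from 0.01 to 1 CPM were whole multiples of 1 read within 0.1 reads, too few to rebuild counts, so no count model was fitted. A test on CPM does not weigh genes by their read number, so low genes are less precise than their values look.

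Groups came from the injection label. The 13187 of 18269 genes that reached 1 CPM in 3 or more libraries were tested as log2(CPM + 1), a pseudocount that understates changes of low genes, with limma 3.58.1 in R 4.3.3: 1 fit of 3 groups, eBayes with a trend, two-sided, Benjamini-Hochberg over all tested genes at 0.05. The fit was tested on simulated data. Chain ratios used exact permutation tests and correlations 100000 resamples (scipy 1.17.1). Levels per kb used the longest complete coding sequence in GENCODE release 21, with which the starts of all 41 members matched on mm10. The plan named protein lengths from RefSeq for this, which were not used here. Gly-X-Y runs were counted from 3 triplets upward in the translated coding sequences.

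Named collagens are up to 4 per class with the highest mean CPM and the 5 with the smallest p in each comparison. Named pathway genes are the 2 with the smallest p per list in each comparison with saline. Other collagens are named by their level, filter status or library pattern. The members, classes and lists were chosen with earlier results of these data known. Alternatives were another pseudocount, no filter, rescaling by trimmed means of M values (TMM), a replicate block, array weights, 2 groups alone and leaving out libraries.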

Additional observations from a re-analysis of the deposited data

Results flagged for a closer look

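In the groups of 4 libraries, 42 groups of values of the 21 named collagens were examined for a sample far from the rest of its group, and 3 were found, all in saline replicate 4. Chance alone gives about 1 such group in 20, and 3 of 42 is close to that rate. The 3 come from the same library and are not independent, so nothing is read from their number. Col4a1 stood at 188.7 CPM there, against 63.5 to 80.8 CPM in the other saline libraries. Col6a2 stood at 64.41 CPM, against 36.1 to 40.8 CPM. Col18a1 stood at 35.33 CPM, against 8.07 to 8.82 CPM. The same library held the highest summed level of adipocyte markers, 4128 CPM, and its part in these values was not tested.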

How the results depend on the processing

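The list and class medians moved by less than 1 within-group SD under every alternative except the one that left out saline replicate 4 and EV-depleted serum replicate 3 together, and 0 collagens passed the adjusted test in limma except with array weights, where 2 did in EV-depleted serum minus saline: Col11a2 (log2 difference -0.89, adjusted p = 0.0324; chosen for mention after its values were seen) and Col23a1 (0.55, 0.0378). That fit called 1794 of all genes, and its weights were estimated without reaching convergence. At an unadjusted p under 0.05, young serum minus saline had 1 collagen, but 0 with the replicate block, 5 with array weights (Col12a1 not among them), 5 in the 2 groups alone, 0 without saline replicates 4 and 6 and 5 without saline replicate 4 and EV-depleted serum replicate 3. EV-depleted serum minus saline had 0, but 4 with array weights, 1 without saline replicates 4 and 6 and 5 without saline replicate 4 and EV-depleted serum replicate 3. Young serum minus EV-depleted serum had 0, but 4 with array weights and 1 without saline replicate 4 and EV-depleted serum replicate 3. With single libraries left out, these counts ran from 0 to 5, 0 to 3 and 0 to 4. The cause was not tested. With array weights, the share of all tested genes at that unadjusted level ran from 13.56% to 41.77% over the comparisons, highest in young serum minus saline. In the 2 groups alone it was 20.41% for young serum minus saline. Collagens were thus no more frequent there than genes at large. The last of those ranges reached its top without EV-depleted serum replicate 4, where the share of all genes was 2.965%, below that of the collagens.

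Medians changed sign as well. With the replicate block, young serum minus saline had medians of -0.1139 for all collagens, -0.1686 for fibrillar, -0.02785 for FACIT and -0.1139 for other genes, with 10 of 31 collagens above 0 (39.75% of all genes). Number 1 occurred only in young serum and number 6 only in saline, so that fit in effect left both libraries out. Without saline replicate 6 alone, the medians of young serum minus saline were -0.05585 for all and -0.1312 for fibrillar genes. With array weights the basement membrane median was 0.1759. In EV-depleted serum minus saline the median of all collagens was 0.139 without saline replicate 4, 0.2046 without EV-depleted serum replicate 3 and 0.03083 without saline replicates 4 and 6, and in young serum minus EV-depleted serum it was -0.1181 without EV-depleted serum replicate 3.

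The following single genes and ratios, none past the adjusted test, changed sign on the log2 scale. With array weights, EV-depleted serum minus saline was 0.1472 for Col1a1, 0.1276 for Col1a2, 0.0571 for Col3a1, 0.2386 for Col4a1 and 0.2652 for Col4a2. Young serum minus saline was then 0.1364 for Col4a1 and 0.1435 for Col4a2, and young serum minus EV-depleted serum -0.1218 for Col4a2. Without saline replicates 4 and 6, EV-depleted serum minus saline was 0.0944 for Col1a2, 0.1192 for Col4a1 and 0.1046 for Col4a2. Young serum minus saline was 0.09901 for Col4a1, 0.1372 for Col4a2 and -0.02935 for the ratio Col6a3/Col6a1. Without saline replicate 4 and EV-depleted serum replicate 3, a setting added after the data were seen, EV-depleted serum minus saline was 0.5581 for Col1a1, 0.5786 for Col1a2, 0.6568 for Col3a1, 0.4632 for Col4a1, 0.4649 for Col4a2 and 0.168 for Col6a2. Its medians were 0.4458 for all collagens, 0.5684 for fibrillar, 0.432 for basement membrane, 0.4233 for FACIT and 0.4255 for other genes. Young serum minus saline was 0.1656 for Col4a1, 0.2447 for Col4a2 and 0.03225 for the ratio Col1a1/Col1a2, and young serum minus EV-depleted serum -0.1745 for Col3a1 and -0.2202 for Col4a2.

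With single libraries left out, young serum minus saline ran from -0.1259 to 0.4823 for Col3a1, -0.3529 to 0.1656 for Col4a1, -0.2199 to 0.2447 for Col4a2, -0.114 to 0.03301 for Col1a1/Col1a2 and -0.0419 to 0.09337 for Col6a3/Col6a1. EV-depleted serum minus saline ran from -0.388 to 0.2631 for Col1a1, -0.2643 to 0.334 for Col1a2, -0.5552 to 0.2769 for Col3a1, -0.3754 to 0.1858 for Col4a1, -0.2525 to 0.2121 for Col4a2 and -0.1226 to 0.804 for Col24a1. Young serum minus EV-depleted serum ran from -0.1745 to 0.6575 for Col3a1, -0.2977 to 0.1854 for Col4a1 and -0.2202 to 0.1705 for Col4a2.

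Same-numbered libraries of different groups deviated from their group means with correlations of -0.277 to 0.300, so the numbers were not taken as pairs. With the replicate number as a block, which in effect leaves out young serum replicate 1 and saline replicate 6, Col3a1 in young serum minus saline was -0.3496. Precision is limited by 3 or 4 libraries per group, as the 95% intervals show.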
